A study of Homo sapiens with 15 samples.

Results

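Transcript levels were examined for 31 genes of the SREBP programme, the set of sterol and fatty acid synthesis genes under the control of the sterol regulatory element-binding proteins, in A2058 cells, an established line of human malignant melanoma. The members were chosen by function, with earlier results of these data known. They were 18 enzymes of sterol synthesis, 4 genes of regulation and sterol transport, and 9 enzymes of fatty acid and lipid synthesis. Probes were assigned to a member through the RefSeq accession that the array gives them, and all 31 members had a probe that passed the filter on dim signals, out of 26795 features tested in all. Cells were treated for 8 h with NP at 3 µM, metformin (MET) at 5 mM, phenformin (PHEN) at 50 µM, or a vehicle alone, which was DMSO for NP and water (W) for metformin and phenformin, with 3 arrays in each of the 5 groups from what the submitters call independent experiments. The series title spells NP out as neopetasin whereas the paper names the compound petasin, so the label NP is kept; metformin and phenformin are biguanides, and all of these compounds are studied as inhibitors of respiratory complex I. Each group was the same line, so that no group stands for more than 1 cell line, and the doses differed between the compounds.

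The SREBPs are transcription factors made as membrane proteins of the endoplasmic reticulum. When sterols are plentiful, INSIG proteins hold the SREBP and its escort SCAP in place; when sterols are scarce, SCAP carries the SREBP to the Golgi, where the proteases MBTPS1 and MBTPS2 release the part that enters the nucleus. The product of SREBF2 acts mainly on sterol genes and that of SREBF1 mainly on fatty acid genes, and INSIG1 is itself a target, so that its transcript falls when the pathway is less active. NF-Y, which binds the letters CCAAT, is a known partner of the SREBPs at many of these promoters.

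Levels are given as log2 intensity minus the 75th percentile of the same array, so that 0 is that array's 75th percentile and a difference of 1 is a doubling. A level of one gene cannot be set against that of another, since probes differ in brightness. The DMSO and NP arrays lay on slides of their own, with 25746 to 31843 probes well above background per array, and the water, metformin and phenformin arrays on other slides, with 31362 to 44928 of 58201 probes. No spot was saturated, and the number of arrays limits the precision. Of 9 melanocyte lineage markers, 8 were well above background on all 15 arrays, the exception being TYR on 13, whereas KRT5 and KRT1 of the keratinocyte list and COL3A1 of the fibroblast list were above background on none. KRT14, COL1A1, LUM, PTPRC, PECAM1 and VWF were above background on all 15 arrays, DCN on 12 and CD3E on 11. No probe was matched to CD68. Each count is that of the gene's probe seen on the most arrays. Other probes fell lower, such as those of PTPRC on 0 and 2 arrays, PECAM1 on 3 and TYR on 1. No marker on any of these lists passed an adjusted p of 0.05 in the 3 comparisons.

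The sequences 250 bases upstream of the annotated start were taken from RefSeq (GRCh38.p14) for 27 of the 31 members. They are shown for SREBF1, the member with the smallest p in the 3 comparisons, and for INSIG1, IDI1, HSD17B7 and HMGCS1. The latter were among the members whose levels were below those of the vehicle with each compound. Capitals mark CCAAT on either strand (ATTGG on the other) and the E-box CACGTG. Where a gene had more than 1 window, the first that held a match to a searched motif is shown. The windows lie at chr17:17836987-17837236, minus strand, for SREBF1; chr7:155297628-155297877, plus strand, for INSIG1; chr10:1048887-1049136, minus strand, for IDI1, 1 of its 3 annotated windows; chr1:162790452-162790701, plus strand, for HSD17B7; and chr5:43313413-43313662, minus strand, for HMGCS1, 1 of its 2 windows.
SREBF1: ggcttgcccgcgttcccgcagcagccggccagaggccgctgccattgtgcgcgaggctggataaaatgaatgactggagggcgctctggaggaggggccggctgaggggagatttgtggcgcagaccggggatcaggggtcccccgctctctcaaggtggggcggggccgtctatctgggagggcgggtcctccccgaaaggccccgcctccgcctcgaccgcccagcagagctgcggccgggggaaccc
INSIG1: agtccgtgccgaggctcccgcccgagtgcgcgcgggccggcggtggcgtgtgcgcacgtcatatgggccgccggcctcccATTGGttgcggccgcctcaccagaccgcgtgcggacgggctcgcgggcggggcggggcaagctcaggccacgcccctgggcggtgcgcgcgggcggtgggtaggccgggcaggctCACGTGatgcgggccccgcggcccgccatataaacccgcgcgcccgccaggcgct
IDI1: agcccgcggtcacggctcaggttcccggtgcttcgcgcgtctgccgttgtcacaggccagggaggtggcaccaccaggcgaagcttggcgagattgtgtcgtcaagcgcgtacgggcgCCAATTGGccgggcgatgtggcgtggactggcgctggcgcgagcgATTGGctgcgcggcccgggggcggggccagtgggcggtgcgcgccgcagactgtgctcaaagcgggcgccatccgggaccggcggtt
HSD17B7: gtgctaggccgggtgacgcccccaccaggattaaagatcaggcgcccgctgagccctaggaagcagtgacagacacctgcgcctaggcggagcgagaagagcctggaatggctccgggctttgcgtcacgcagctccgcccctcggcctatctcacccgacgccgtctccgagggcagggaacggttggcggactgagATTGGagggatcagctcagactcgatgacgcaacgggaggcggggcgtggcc
HMGCS1: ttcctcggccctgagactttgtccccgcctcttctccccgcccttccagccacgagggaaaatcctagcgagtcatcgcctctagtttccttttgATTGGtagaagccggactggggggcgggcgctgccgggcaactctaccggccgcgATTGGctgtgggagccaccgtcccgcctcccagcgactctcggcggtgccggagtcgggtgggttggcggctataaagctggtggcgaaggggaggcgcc
The CCAAT letters were found upstream of 13 of the 15 sterol members with a window (86.7%), 3 of 4 regulators (75%) and 4 of 8 fatty acid members (50%), beside 37% of the 27305 genes of the whole table. In the IDI1 window, 1 match on each strand overlaps the other. None of the motifs searched was in the SREBF1 window. A sterol regulatory element written as TCACNCCAC was found on either strand in 1 member, SREBF2 (1.09% of all genes), the E-box in 2 members, INSIG1 and SC5D (7.73% of all genes), and the ATF4 composite element TGATGNAA in 0 members (3.89% of all genes). A gene with several windows was counted if any of them held the letters, among the members and in the whole table alike. Such matches describe the letters of the windows and no site was measured.

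NP against DMSO: with NP, sterol synthesis genes lay slightly below their vehicle level as a group, and fatty acid genes lay close to it. SREBF1 stood above its vehicle level by 1.69-fold on its brighter probe, and its dimmer probe differed by 0.05 (SE 0.39) on the log2 scale. None of the 31 members passed an adjusted p of 0.05 in limma, which took replicates as blocks and adjusted over all features by Benjamini-Hochberg, where 0.0373% of all features did. At an unadjusted p of 0.05, 1 member was higher (SREBF1) and 3 were lower (HSD17B7, SC5D and IDI1), against 2.8% higher and 1.89% lower among all features. That block spans both sets of slides, and with the replicate numbers blocked within each set 1 member was higher and 10 were lower (HSD17B7, IDI1, SC5D, LSS, INSIG1, HMGCS1, DHCR7, ACLY, SQLE and FDFT1), beside 5.7% and 5.79% of all features. Groups that did not overlap were found for 1 member on the higher side, SREBF1, and 2 on the lower side, IDI1 and HSD17B7, against 3.02% and 3.41% of all features. The median log2 fold change was -0.19 over the 18 sterol members, -0.04 over the 9 fatty acid members and -0.01 over all features.

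**Figure D1:**
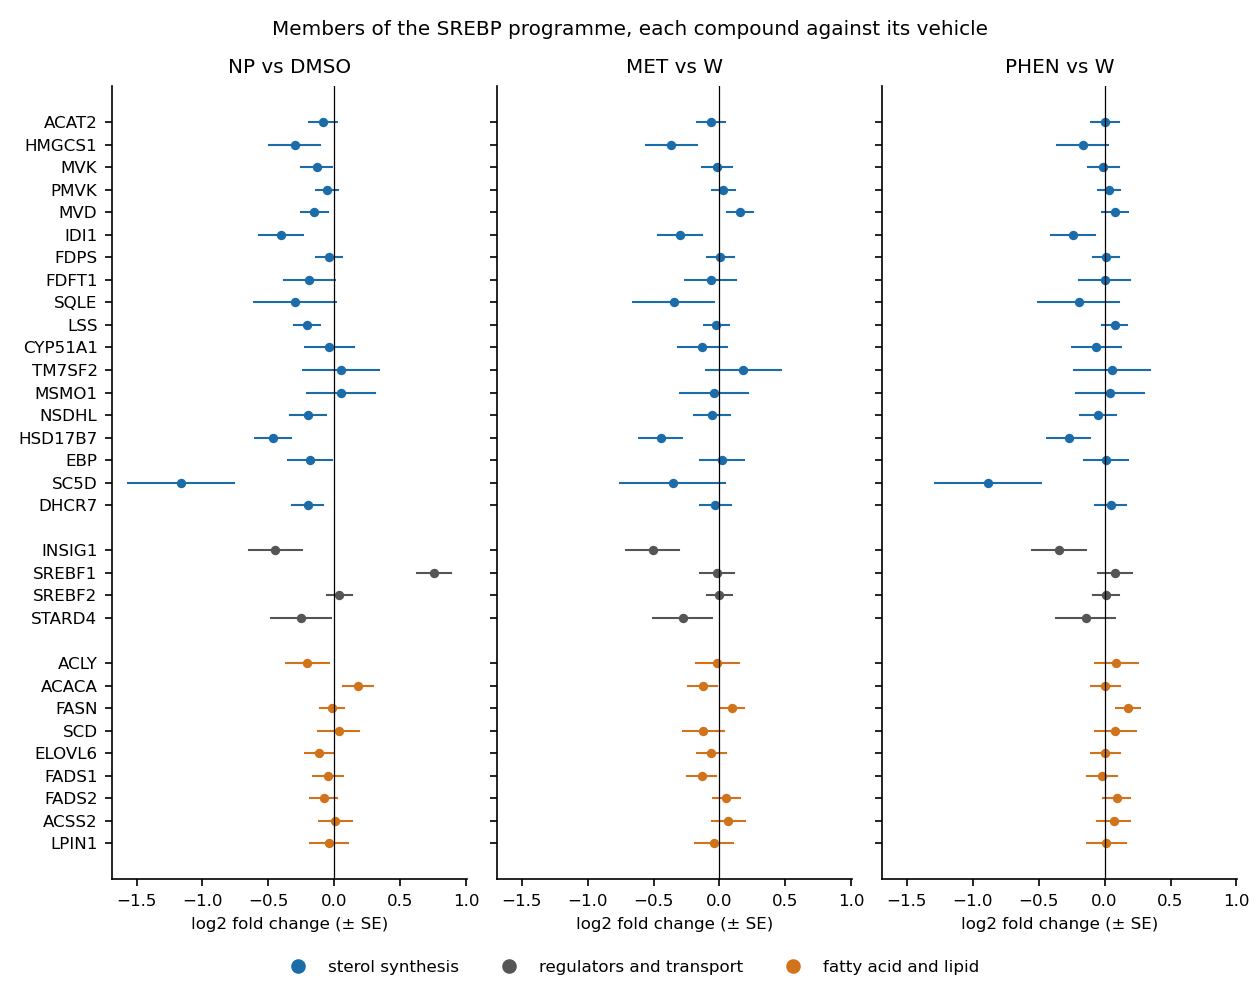
Log2 fold change of each of the 31 members (rows) with NP, metformin (MET) and phenformin (PHEN) against the vehicle of each; points are the limma estimates from 3 arrays a group, bars are ± 1 SE, and colours mark the sterol, regulator and fatty acid members. With NP 16 of the 18 sterol members lay left of 0, and SREBF1 lay right of 0 at 0.76 on its brighter probe.

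The early sterol enzymes, which build farnesyl units from acetyl-CoA, were all below 0 with NP, from -0.41 for IDI1 to -0.04 for FDPS. IDI1, which isomerises isopentenyl diphosphate, read 3.41, 3.14 and 3.35 on the DMSO arrays and 2.96, 2.68 and 3.03 on the NP arrays. The groups did not overlap, and each NP array lay below the DMSO array of the same replicate number, by -0.44, -0.46 and -0.32. The fitted difference was -0.41 (SE 0.17, unadjusted p = 0.0367, adjusted p = 1.00). HMGCS1, which makes HMG-CoA, read 1.11, 0.85 and 1.22 with DMSO and 0.85, 0.52 and 0.91 with NP. It was lower in each pair, yet the groups overlapped, and the difference was -0.30 (SE 0.19, unadjusted p = 0.151, and 0.0166 with the block within each set of slides). ACAT2, MVK, PMVK, MVD and FDPS, the other enzymes of this stretch, lay between -0.15 and -0.04.

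Of the 11 later enzymes, from squalene to cholesterol, 9 were lower in all 3 pairs. HSD17B7, a sterol ketoreductase, read 0.74, 0.60 and 0.85 with DMSO and 0.32, 0.03 and 0.44 with NP. Every NP array lay below every DMSO array. The difference was -0.46 (SE 0.14, unadjusted p = 0.0083, adjusted p = 0.774), the smallest adjusted p of the sterol members, and the other 2 probes of the gene gave -0.54 and -0.15. SC5D, the sterol desaturase, had the farthest estimate at -1.16 (SE 0.40, unadjusted p = 0.0154, adjusted p = 0.906), from -3.11, -3.50 and -4.63 with DMSO and -4.14, -4.79 and -5.79 with NP. Its groups overlapped, and the probe was well above background on only 1 of 3 arrays in each of the 2 groups; with normexp background correction the difference was -0.18. LSS, which closes the sterol ring, was lower by -0.21, -0.21 and -0.20 in the 3 pairs (fitted -0.21, SE 0.10, unadjusted p = 0.0582), while its dimmer probe gave -0.13, 0.17 and -0.89. FDFT1, SQLE, NSDHL, EBP and DHCR7 lay between -0.30 and -0.18 with each pair below 0, and CYP51A1 at -0.04. TM7SF2 (0.05) and MSMO1 (0.05) were the 2 sterol members above 0, against 46.2% of all features above 0. For MSMO1 the pairs disagreed, at -0.32, 0.82 and -0.35.

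All 3 pairs were lower with NP for 13 of the 18 sterol members, 2 of the 4 regulators and 3 of the 9 fatty acid members, and for 18.9% of all features. All 3 pairs were higher for 1 sterol member, 2 regulators and 1 fatty acid member, and for 14.3% of all features. The sterol median was -0.21, -0.14 and -0.21 in the 3 replicate pairs, and the fatty acid median -0.09, 0.04 and 0.00. The sterol median thus lay below 0 in each pair while the fatty acid median took both signs; the difference between the lists was not tested.

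**Figure D2:**
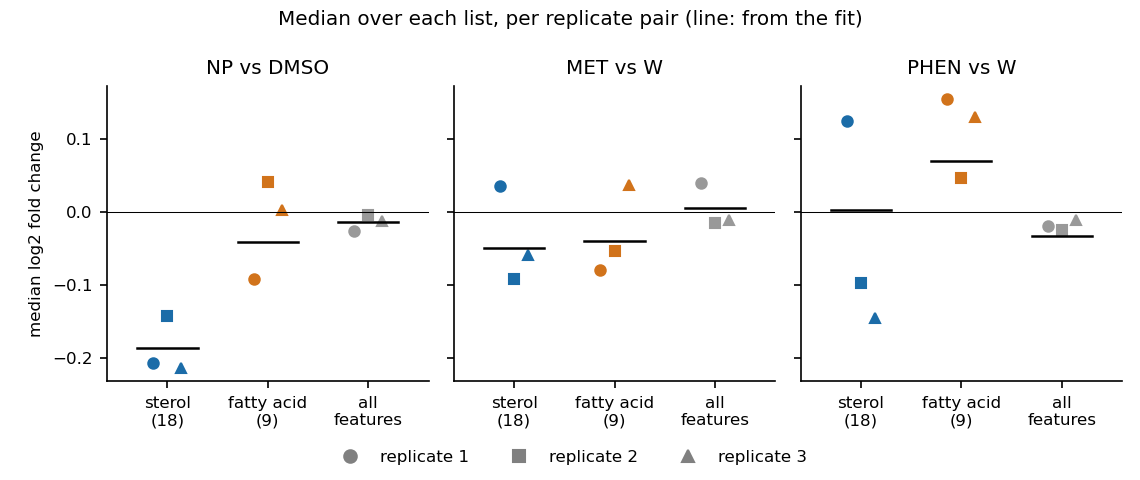
Median log2 fold change over the 18 sterol members, the 9 fatty acid members and all features (horizontal axis) for each replicate pair (symbols) and from the fit (line), in each of the 3 comparisons. The sterol medians of the 3 NP pairs lay between -0.21 and -0.14, whereas in the phenformin pairs they ran from -0.15 to 0.12.

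SREBF1 read 5.67, 5.62 and 6.28 on the DMSO arrays and 6.51, 6.39 and 6.92 on the NP arrays. Each NP array lay above all DMSO arrays, by 0.85, 0.78 and 0.64 within pairs. The group levels were 5.85 ± 0.37 and 6.61 ± 0.28 (SD, n = 3 each), a difference of 0.76 (SE 0.13, 95% confidence interval 0.47 to 1.04, limma unadjusted p = 0.000155, adjusted p = 0.134). Over 14 alternatives the adjusted p ran from 0.0165 to 1.00, and 3 of them were at 0.05 or below: the replicate numbers blocked within each set of slides (0.0233), a slide term (0.0165) and normexp background correction (0.0197). A further, dimmer probe to the same accession did not show the difference: it read -0.21, -0.25 and 1.18 with DMSO and -0.09, 0.03 and 0.94 with NP, a difference of 0.05 (SE 0.39). This probe was also well above background on all 15 arrays, and with the mean of both probes SREBF1 stood at 0.41 (unadjusted p = 0.134).

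SREBF2 read 1.93, 2.09 and 2.33 with DMSO and 1.99, 2.14 and 2.34 with NP. Its pairs differed by 0.05, 0.05 and 0.01, with a fitted difference of 0.04 (95% confidence interval -0.18 to 0.25). INSIG1, the retention protein and target gene, read 2.67, 2.04 and 2.89 with DMSO and 2.40, 1.74 and 2.12 with NP. Each pair was lower, by -0.28, -0.30 and -0.77, and the groups overlapped. The difference was -0.45 (SE 0.20, unadjusted p = 0.0528, and 0.0105 with the block within each set of slides). Of 14 alternatives, 5 put INSIG1 at an unadjusted p of 0.05 or below. STARD4, which carries cholesterol between membranes, lay at -0.25 (SE 0.22), also lower in each pair.

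Among the fatty acid members with NP, ACLY, the enzyme that supplies acetyl-CoA from citrate, was lowest at -0.20 (SE 0.16) and ACACA, the acetyl-CoA carboxylase, was highest at 0.18 (SE 0.11). The ACACA pairs stood at 0.17, 0.15 and 0.21 on this probe and at 0.00, -0.22 and 0.16 on its dimmer probe, also above background on all 15 arrays, whose difference was -0.02 (SE 0.19). ACLY, ELOVL6 and FADS2 were lower in all 3 pairs. FASN, the fatty acid synthase, read 3.59, 3.38 and 3.77 with DMSO and 3.57, 3.48 and 3.63 with NP, a difference of -0.02 (95% confidence interval -0.22 to 0.18). SCD, the stearoyl-CoA desaturase, lay at 0.03, ACSS2 at 0.01, LPIN1 at -0.04 and FADS1 at -0.05. None of the 9 had an unadjusted p of 0.05 or below, and with the block within each set of slides ACLY did (0.0294). Under that block 5.79% of all features were lower at an unadjusted p of 0.05, in place of 1.89%.

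**Figure D3:**
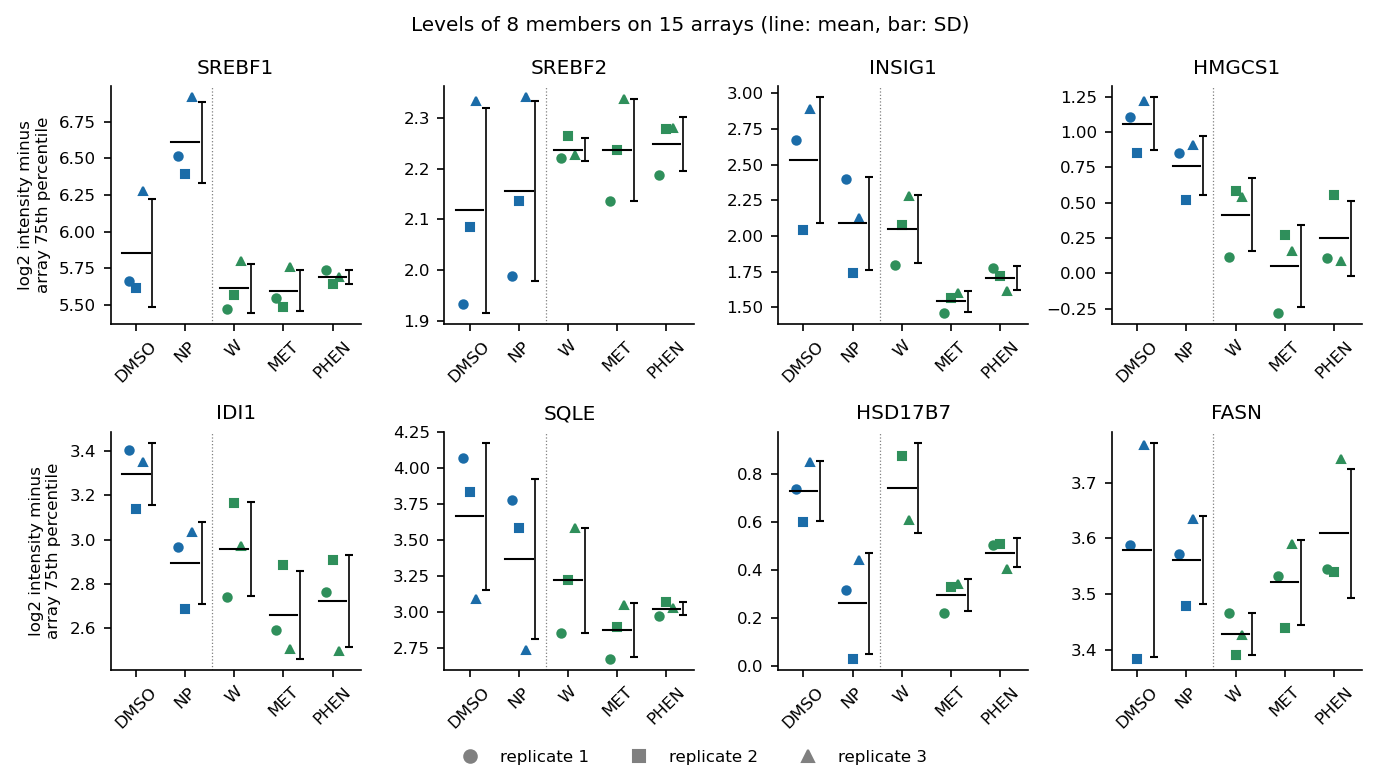
Level of 8 members (log2 intensity minus the array's 75th percentile, with its own vertical scale for each gene) on the 15 arrays; symbols are replicate numbers, lines are group means, bars are SD, and the dotted line parts the slides of DMSO and NP from those of water (W), metformin and phenformin. For SREBF1, shown by its brighter probe, the 3 NP arrays, at 6.39 to 6.92, lie above the other 12. For HSD17B7 1 water array had an outlier spot and is missing.

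Metformin against water: with metformin HSD17B7 and INSIG1 lay lowest against water, at 0.734 and 0.704 times its level, and the medians of the sterol and fatty acid lists were -0.05 and -0.04. None of the 31 members passed an adjusted p of 0.05 in limma, nor did any feature of the series (0%), although 370 features on the higher side (1.38%) and 288 on the lower side (1.07%) had an unadjusted p of 0.05 or below. Of the members, 0 were higher and 2 were lower at that unadjusted p, HSD17B7 and INSIG1. With the block within each set of slides 1 was higher (TM7SF2) and 5 were lower (HSD17B7, INSIG1, HMGCS1, IDI1 and SQLE), beside 4.72% and 4.56% of all features. Groups did not overlap for 1 member, INSIG1, on the lower side, against 2.28% of all features, and for 0 members on the higher side, against 3.48%, counting features with a value on all 6 arrays, which leaves out HSD17B7.

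INSIG1 read 1.80, 2.07 and 2.28 on the water arrays and 1.46, 1.57 and 1.60 on the metformin arrays. Each metformin array lay below every water array. The difference was -0.51 (SE 0.20, 95% confidence interval -0.96 to -0.05, unadjusted p = 0.032, adjusted p = 1.00), and it was -0.34, -0.51 and -0.67 in the pairs. HSD17B7 read 0.87 and 0.61 on the 2 water arrays with a value and 0.22, 0.33 and 0.34 on the metformin arrays, all below both water values. Its fitted difference of -0.45 (SE 0.16, unadjusted p = 0.023) rests on those 2 water arrays, since the spot of water replicate 1 was an outlier and was dropped, and the other 2 probes gave -0.28 and -0.33. HMGCS1 read 0.12, 0.58 and 0.54 with water and -0.28, 0.27 and 0.16 with metformin, lower in each pair, with a difference of -0.37 (SE 0.19, unadjusted p = 0.0871). IDI1 lay at -0.30 (SE 0.17) and SQLE, the squalene epoxidase, at -0.35 (SE 0.31), each lower in all 3 pairs.

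The median log2 fold change with metformin was -0.05 over the sterol members, -0.04 over the fatty acid members and 0.00 over all features. Above 0 were 5 of the 18 sterol members, 0 of the 4 regulators and 3 of the 9 fatty acid members, against 51.1% of all features. All 3 pairs were lower for 5 sterol members (HMGCS1, IDI1, FDFT1, SQLE and CYP51A1), 2 regulators (INSIG1 and STARD4) and 3 fatty acid members (ACACA, SCD and FADS1), against 20.2% of all features. All 3 pairs were higher for MVD, TM7SF2 and FASN, 3 members in all, against 22.3%. SREBF1 read 5.47, 5.57 and 5.80 with water and 5.55, 5.49 and 5.76 with metformin, a difference of -0.02 (95% confidence interval -0.30 to 0.27), and SREBF2 differed by 0.00 (95% confidence interval -0.22 to 0.22). ACACA lay at -0.13 (SE 0.11) and FASN at 0.09 (SE 0.09).

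Phenformin against water: with phenformin 10 of the 18 sterol members and 8 of the 9 fatty acid members lay above 0, and INSIG1 lay below it. None passed an adjusted p of 0.05 (0.0261% of all features did), and 0 members were higher and 0 lower at an unadjusted p of 0.05 in limma, against 0.814% and 1.54% of all features. With the block within each set of slides 1 was higher (FASN) and 4 were lower (SC5D, INSIG1, IDI1 and HSD17B7), beside 2.98% and 4.12%. Of these, SC5D passed the filter on dim signals through the water group alone, which favours a fall from water. Groups did not overlap for 1 member on the higher side, FASN, and 1 on the lower side, INSIG1, against 3.83% and 4.31% of all features, again without HSD17B7. Both biguanides were set against the same 3 water arrays, so the values of these comparisons are not independent of each other.

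INSIG1 read 1.78, 1.72 and 1.62 with phenformin, each below every water array, and the difference was -0.35 (SE 0.20, unadjusted p = 0.12). In the pairs it ran from -0.02 to -0.66. FASN read 3.47, 3.39 and 3.43 with water and 3.55, 3.54 and 3.74 with phenformin, each phenformin array above every water array. The difference was 0.18 (SE 0.09, unadjusted p = 0.073). SC5D lay at -0.88 (SE 0.40, unadjusted p = 0.0511), lower in each pair, though its probe was well above background on 3 of 3 water arrays and only 1 of 3 phenformin arrays. That probe passed the filter on dim signals through the water group alone, which favours a fall from water. HSD17B7 read 0.50, 0.51 and 0.40 with phenformin, all below the 2 water arrays with a value, at -0.27 (SE 0.16). The other 2 probes, with a value on all 3 water arrays, gave -0.14 (SE 0.14) and -0.41 (SE 0.17). On the former the groups overlapped, with pairs of 0.06, -0.17 and -0.31, and on the latter they did not.

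The median was 0.00 over the sterol members, 0.07 over the fatty acid members and -0.03 over all features, of which 40.5% lay above 0. All 3 pairs were lower for HMGCS1, SC5D and INSIG1, 3 members against 14.8% of all features, and higher for MVD, LSS, FASN and ACSS2, 4 members against 12.2%. For SC5D the limit of the filter given above holds here too. The dimmer LSS probe, above background on all 15 arrays, went the other way, at -0.23 (SE 0.18) from pairs of -0.31, -0.38 and 0.00. The sterol median was 0.12, -0.10 and -0.15 in the 3 pairs, and the fatty acid median was 0.15, 0.05 and 0.13. The former took both signs, and the latter fitted at -0.02 without replicate 1. IDI1 (-0.24, SE 0.17), HMGCS1 (-0.17, SE 0.19) and SQLE (-0.20, SE 0.31) lay below 0. SREBF1 read 5.74, 5.64 and 5.69, a difference of 0.08 (95% confidence interval -0.21 to 0.37), and SREBF2 lay at 0.01.

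Differences between compounds were tested as the change with NP against DMSO minus the change with a biguanide against water. No member passed an adjusted p of 0.05, nor did any feature, in the test against metformin (0%) or in that against phenformin (0%). At an unadjusted p of 0.05 SREBF1 was the only member, on the higher side in both. For SREBF1 the change with NP exceeded that with metformin by 0.77 (95% confidence interval 0.37 to 1.18, unadjusted p = 0.00171) and that with phenformin by 0.68 (95% confidence interval 0.27 to 1.08, unadjusted p = 0.00398), each with an adjusted p of 1.00 in limma. At that unadjusted p, 1.38% of all features were higher and 1.41% lower against metformin, and 1.91% higher and 0.515% lower against phenformin. The NP change enters both tests, and both used the bright SREBF1 probe alone. The dimmer probe did not show these differences, at 0.05 with NP, 0.25 with metformin and 0.15 with phenformin (SE 0.39 each).

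**Figure D4:**
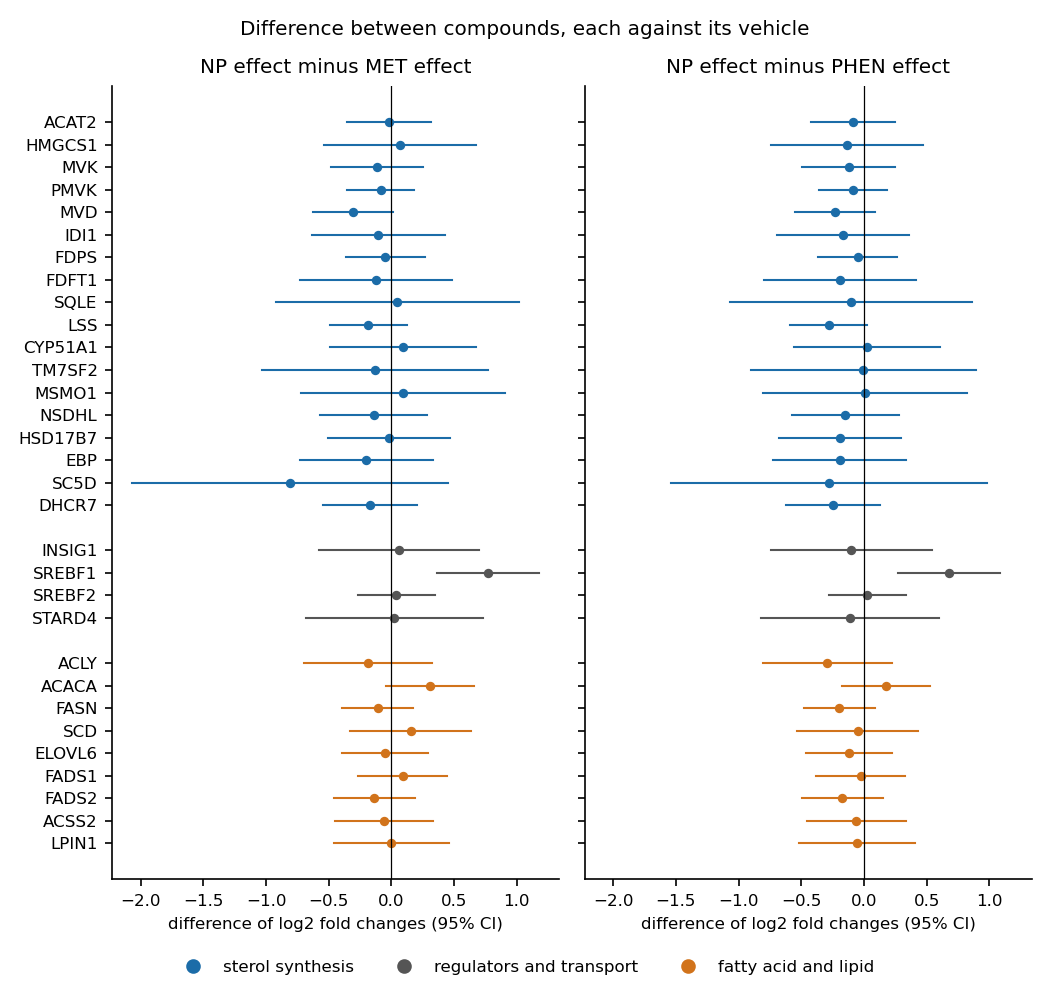
Change with NP against DMSO minus the change with metformin (left) or phenformin (right) against water, for each of the 31 members, on the log2 scale; points are limma estimates, bars are 95% confidence intervals, and colours mark the lists. SREBF1, on its brighter probe, is the only member whose interval lies clear of 0 in both panels, at 0.77 and 0.68.

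For the sterol members these tests did not separate the compounds. IDI1, HMGCS1, HSD17B7 and the regulator INSIG1 lay below 0 with each compound, and their intervals for the difference between compounds all included 0. MVK, SQLE, CYP51A1, NSDHL, SC5D, STARD4 and FADS1 also lay below 0 with each compound. Of all features, 46.2% lay above 0 with NP, 51.1% with metformin and 40.5% with phenformin. The change of MVD, the mevalonate diphosphate decarboxylase, was -0.15 with NP, 0.16 with metformin and 0.08 with phenformin, and the NP and metformin changes differed by -0.31 (95% confidence interval -0.63 to 0.01, unadjusted p = 0.0574). For LSS the NP and phenformin changes differed by -0.28 (95% confidence interval -0.59 to 0.02) on the bright probe, whereas the dimmer probe stood at -0.28 with NP and -0.23 with phenformin. The bright ACACA probe was higher in all 3 NP pairs and lower in all 3 metformin pairs, and these changes differed by 0.31 (95% confidence interval -0.04 to 0.66, unadjusted p = 0.0808). The dimmer ACACA probe did not show this, at -0.02 with NP and 0.07 with metformin, where it was higher in all 3 pairs. Metformin and phenformin were given at different doses and were not compared with each other.

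The levels of the members also differed between the 2 vehicles, but vehicle and slide cannot be told apart, because no slide held both. Of the 31 members, 3 passed an adjusted p of 0.05 between DMSO and water in limma, as did 17.2% of all features. MVD read -0.13, -0.18 and -0.35 with DMSO and 1.08, 0.88 and 0.56 with water, a difference of -1.06 (SE 0.10, adjusted p = 0.0034). HMGCS1 stood higher with DMSO by 0.64 (SE 0.19, adjusted p = 0.0456) and LPIN1, the phosphatidate phosphatase, by 0.53 (SE 0.15, adjusted p = 0.0349). Without the replicate block MVD alone passed, with a slide term 9 members did, and without replicate 1 or without replicate 2 the number was 0. These estimated gaps between vehicles were farther from 0 than the change of the same genes with any compound against its own vehicle.

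A wider list of the pathway held 38 more genes for SREBP processing and sterol sensing, sterol handling and fatty acid synthesis, of which 36 were tested. None passed an adjusted p of 0.05 in limma in any of the 3 comparisons. With NP the smallest p was that of MID1IP1, a protein that promotes the polymerisation of acetyl-CoA carboxylase, at 0.34 (SE 0.09, unadjusted p = 0.0033, adjusted p = 0.567), followed by ACSL3, an acyl-CoA synthetase, at 0.24 (SE 0.10), and TMEM97 at -0.28 (SE 0.13). With metformin ACSL3 lay at -0.26 (SE 0.10), GGPS1, the geranylgeranyl diphosphate synthase, at -0.37 (SE 0.17) and TECR, of the fatty acid elongation cycle, at 0.22 (SE 0.11). With phenformin MID1IP1 lay at 0.25 (SE 0.09) and ERLIN1 at 0.19 (SE 0.10). The median over the 36 genes was -0.07 with NP, -0.02 with metformin and 0.02 with phenformin.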

How the data were processed

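RNA from 15 cultures was hybridised, 1 array each, to SurePrint G3 Human arrays in 1 colour (Cy3). The deposited intensity values are Feature Extraction's processed signals, background-subtracted by the authors' scanner software (version 10.7.3.1 per the file headers; the submitters' processing notes list 9.1). The authors also deposited a log2 table that they had scaled to each 75th percentile, used here as an alternative. Spot flags of other kinds, deposited beside them, marked outlier spots, which were left out, and spots well above background.

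From the intensities, log2 values minus the array's 75th percentile were computed. The filter on dim signals kept a probe if any 1 of the 5 groups had it well above background on each of its 3 arrays (32880 probes). A probe could thus enter through 1 group alone. A feature also needed a value, dim or bright, on 8 or more of the 15 arrays. Probes were named through RefSeq accessions (31100 of 33080 matched), and the brightest probe stood for a gene. Tests were limma 3.58.1 (R 4.3.3), lmFit and eBayes, 2-sided, over 5 groups with the replicate number as a block, as the study's methods pair replicates, with Benjamini-Hochberg adjustment over 26795 features. The fit was tested on simulated data. Same-numbered arrays deviated together, with correlations of 0.31, 0.33 and 0.65 for DMSO and NP. They were 0.86, 0.44 and 0.80 for W and MET, and 0.30, 0.24 and 0.40 for W and PHEN. In each set of slides, replicates 1 and 2 shared a slide and replicate 3 lay on another. Between replicates 1 and 2 the correlations were 0.24 and 0.29 for DMSO and NP. They were -0.24 and -0.33 for W and MET, and 0.05 and -0.05 for W and PHEN. For replicate 3, number and slide cannot be told apart. The design text speaks of independent experiments, and the numbers were taken to pair the samples. The study's methods set every compound against DMSO, and its design text sets biguanides against water, which was followed here. Groups came from the sample titles.

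The members and lists were chosen with earlier results of these data known. All 31 members are described, with values per array for those at an unadjusted p of 0.05 or with groups that did not overlap, and for SREBF1, SREBF2 and INSIG1; HMGCS1 was added after its values were seen. Of the wider list the 3 genes with the smallest p per comparison are named, except 1 gene that is not reported here. Alternatives covered the block, the slide, the filter, the probe, the normalization, the background correction, the authors' table, the samples in the fit, the methods' paired test, the comparator and leaving out each replicate. Figures were drawn with matplotlib 3.10.9.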

Additional observations from a re-analysis of the deposited data

How the results depend on the processing

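No member passed an adjusted p of 0.05 against its own vehicle in limma, except SREBF1 with NP, which gave 1 member with the replicate block within each slide set, 1 with a slide term and 1 with normexp background correction. Without the replicate block the numbers of members at an adjusted p were 0, 0 and 0, and 3, 0 and 0 features passed in all for NP, metformin and phenformin. At an unadjusted p of 0.05 the replicate block within each slide set gave 11 members with NP (1 higher and 10 lower, beside 5.7% and 5.79% of all features), 6 with metformin (1 and 5, beside 4.72% and 4.56%) and 5 with phenformin (1 and 4, beside 2.98% and 4.12%), in place of 4, 2 and 0. With NP the methods' paired t-test gave 11 (2 higher and 9 lower, beside 2.91% and 4.69%) and a fit on only the 2 groups 9 (1 and 8, beside 3.94% and 3.43%), and after Benjamini-Hochberg the former called 0 features. With metformin the slide term gave 4 members (1 and 3, beside 3.9% and 3.46%), the 2 groups alone 6 (1 and 5, beside 8.67% and 6.3%) and the methods' paired test 5 (1 and 4, beside 5.95% and 5.77%), whereas normexp, averaging over probes, and keeping only probes seen on all 15 arrays each gave 1. With phenformin the slide term gave 3 members (1 and 2, beside 2.31% and 3.17%), and the authors' table and the 2 groups alone each gave 1. Leaving out a replicate gave 2 to 3 members with NP (2 without replicate 1 or 2), 0 to 1 with metformin (0 without replicate 1 or 2) and 0 to 1 with phenformin (1 without replicate 3). The NP sterol median ran from -0.22 to -0.16 when a replicate was left out and was -0.15 with normexp; the fatty acid median with phenformin ran from -0.0202 to 0.0817, the former without replicate 1. For each of these the cause was not tested.

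With DMSO in place of water, so that compound and slide cannot be told apart, 8 members passed an adjusted p with metformin (15 unadjusted), beside 26.4% of all features, and 5 with phenformin (12 unadjusted), beside 17.9%, and the median of all features moved to 0.14 and 0.09. MSMO1 and LPIN1 then reversed with phenformin, to -0.63 and -0.52. Over single members and settings 1196 values kept direction and side of the threshold, 75 passed it anew, 17 no longer passed, 69 moved and 2 reversed. SC5D, above background on 8 of 15 arrays, stood at -1.16 with NP and at -0.18 with normexp.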
